A study of Macaca mulatta with 6 samples.

Results

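Transcripts of 38 collagen genes were measured in RF/6A cells, out of 24932 genes in all. The genes were every row of the deposited table whose symbol is COL, a number, A and a number, and the values of the 103 transcripts behind them were summed per gene. By textbook class the 38 genes comprise 9 fibrillar chains, 6 basement membrane chains (type IV), 3 network-forming chains (types VIII and X), 9 FACIT chains, which are short-helix collagens that attach to the surface of fibrils, 4 chains of the beaded filaments of type VI, 4 transmembrane chains, 2 multiplexins and 1 anchoring fibril chain (type VII). Other collagen genes, among them COL1A2, were not analysed here, so collagen sums, class sums and shares below are of the 38 genes alone.

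RF/6A is a rhesus macaque line described as choroidal endothelium. The control cells stood for 4 hours in 50% human serum whose complement had been inactivated by heat, and the treated cells for 4 hours in 50% normal human serum, in which complement can form the membrane attack complex. All cells had been grown to confluence on porous inserts (0.4 µm) in medium with 5% bovine serum, so both treatments share human serum, and with no arm that removed complement by other means, active complement and other effects of heating serum cannot be told apart. There were 3 libraries of polyadenylated RNA per treatment. The labels do not say that the replicates are separate cultures, so each p-value reflects spread among libraries that may be technical.

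Collagens are trimers of chains that wind around each other in a triple helix with glycine at every turn. Fibrillar collagens carry tension in the stroma of the choroid and in the collagen layers of Bruch's membrane, while type IV chains form the sheet beneath endothelium and retinal pigment epithelium. The chains are hydroxylated and folded in the endoplasmic reticulum, trimmed by proteases after secretion and crosslinked by lysyl oxidases. In the RF/6A libraries the defining endothelial gene CDH5 was listed at 0 in the control and stood at 0.0110 ± 0.00974 FPKM (SD, n = 3) in normal serum. FPKM are fragment numbers scaled for transcript length and library depth. Of 14 endothelial markers 13 were found and 5 reached a mean of 1 FPKM. All 5 were higher in normal serum, where 27.8% of all genes tested were higher. Once libraries were brought to equal total FPKM, PECAM1, ESAM and FLI1 stayed higher, against 16.5% of all genes. After quantile normalization 4 of the 5 were higher. The summed endothelial level ran from 89.0 to 89.4 FPKM in the control and from 114.8 to 121.6 FPKM in normal serum. ENG was the largest part of that sum (61.2 ± 0.309 to 74.2 ± 6.31 FPKM). Its log2 change of 0.27 went to 0.13 at equal total FPKM and 0.08 after quantile normalization, where it was not called. Of the untested markers VWF was higher (0.172 to 1.05 FPKM) and KDR lower (0.370 to 0.105 FPKM), without overlap. TEK, TIE1, CLDN5, ERG and PLVAP, also too low to test, overlapped between treatments. Of 14 fibroblast and mural markers that are not collagens, 11 reached a mean of 1 FPKM. Of these 6 were lower and 4 higher, where 26.1% of all genes tested were lower and 27.8% higher. At equal total FPKM 6 were lower and 3 higher, against 31.0% and 16.5% of all genes. After quantile normalization 6 were lower and 2 higher, and the share of all genes called was not computed there. The smallest adjusted p in each direction belonged to DCN, which encodes decorin (828.2 ± 33.2 to 157.7 ± 11.7 FPKM), and CSPG4 (14.5 ± 0.222 to 40.9 ± 0.273 FPKM). The summed level of the 14 ran from 3149 to 3215 FPKM in the control and from 2780 to 3007 FPKM in normal serum. That sum mixes directions and does not show a fall of these markers as a whole. The 4 higher genes include its largest member, TAGLN (1013 ± 20.4 to 1367 ± 94.6 FPKM), and S100A4 (639.6 ± 54.6 to 787.7 ± 42.3 FPKM), while DCN is among the 6 lower. The part of these marker changes in the collagen values was not tested, and in bulk RNA fewer cells of a type and less RNA per cell cannot be told apart. The leukocyte gene PTPRC was near 0 in both treatments (0.0234 and 0.00532 FPKM), as were CSF1R and CD3E. Other genes of the leukocyte list were not near 0. CD68 stood at 7.32 FPKM in the control and 8.62 FPKM in normal serum, and CD14 at 1.45 and 1.10 FPKM. Neither CD68 nor CD14 was past the threshold.

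Most collagen genes that could be tested were lower in normal serum, and a few were higher. A mean of at least 1 FPKM over the 6 libraries was reached by 23 of the 38 genes, and these were tested with limma on log2(FPKM + 1), with p-values adjusted over all 11818 genes tested and a threshold of 0.05. Past the threshold, 14 of the 23 were lower and 4 higher, where 54.0% of all genes tested were past it, 26.1% lower and 27.8% higher. The median log2 change of the 23 was -0.36, against 0.01 for all genes tested. In 20 of the 23 the libraries of the treatments did not overlap (16 lower and 4 higher in normal serum), against 62.6% of all genes tested (30.5% lower and 32.1% higher). Within replicates 2 and 3 alone, 13 were lower and 4 higher, with a background of 47.0% called, 21.7% lower and 25.3% higher. The replicate 1 libraries, whose low values differ in form from the others (not whole multiples of 1 fragment), give 1 ratio per gene and no test by themselves.

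**Figure D1:**
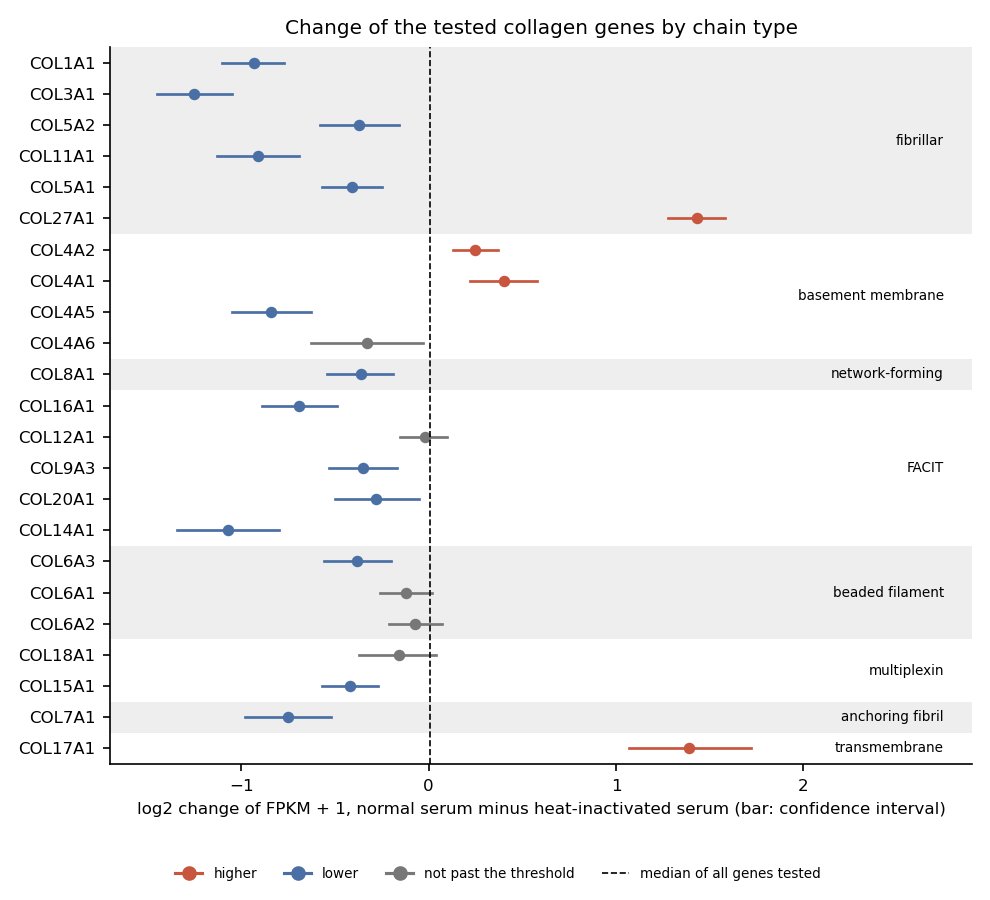
Log2 change of FPKM + 1 (normal serum minus heat-inactivated serum) with its 95% interval for the 23 tested collagen genes, grouped by chain type; the dashed line is the median of all genes tested. The 5 fibrillar chains other than COL27A1 lie between -1.25 and -0.37, and COL27A1 and COL17A1 stand at 1.43 and 1.39.

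The scale of the libraries matters for the small changes. Total FPKM was lowest in heat-inactivated serum replicates 1 and 2 (852828 and 867794). The total of replicate 3 of that serum, 1007949 FPKM, was raised by the microRNA gene MIR1282. That gene was kept in the totals used below, which lowers replicate 3 against replicates 1 and 2, and equal totals without it were not tried. With every library brought to an equal total, all genes had a median of -0.12, and 2 collagen genes were higher and 16 lower, where 47.5% of all genes were called, 16.5% higher and 31.0% lower. This setting is called rescaling below. Summed over the 38 genes, collagen FPKM was 9409, 9083 and 9437 in heat-inactivated serum replicates 1, 2 and 3 and 5586, 5824 and 5814 in normal serum replicates 1, 2 and 3. The sum in normal serum was 0.617 of that in the control, and 0.822 of it when COL1A1 and COL3A1 were left out. The 38 genes held between 0.936% and 1.10% of all FPKM in the control libraries and between 0.553% and 0.593% in normal serum. The lowest control library, replicate 3, stood at 1.09% when MIR1282 was left out of its total.

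The fibrillar chains were the most abundant and fell the most in FPKM. Of 6 tested chains 5 were lower and 1 higher, where 26.1% of all genes tested were lower and 27.8% higher. The median log2 change of the 6 was -0.66. These counts were the same after rescaling, against 31.0% and 16.5% of all genes. They were also the same after quantile normalization, where the share of all genes called was not computed. COL1A1 (chromosome 16 in the table), the main chain of type I collagen in bone, skin and stroma, stood at 4137, 3690 and 3782 FPKM in the control libraries and at 2093, 2064 and 1920 FPKM in normal serum. Every normal serum library was thus well below every control library. The fall was 0.93 on the log2 scale (SE 0.0698, adjusted p = 5.39e-05). By depth the gene held between 124000 and 280000 fragments per library, so counting error is small. Replicate 1 libraries, whose depth is approximate, set the ends of that range. COL3A1 (chromosome 12), whose type III collagen joins type I in distensible tissues such as vessel walls, went from 1831, 1830 and 2004 FPKM to 708.8, 838.1 and 839.5 FPKM. It fell to 0.421 of its control mean, by 1.25 on the log2 scale (SE 0.0839, adjusted p = 3.58e-05). Among the fibrillar chains tested this was the largest fall.

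COL11A1 (chromosome 1), a chain of the thin fibrils of cartilage that is also made by stromal cells, read 235.2, 244.6 and 264.1 FPKM in the control and 115.4, 135.6 and 144.6 FPKM in normal serum, a ratio of 0.532 (log2 change -0.91, SE 0.0928, adjusted p = 2.13e-04). The type V chains, which start and thin fibrils of type I, moved less. COL5A1 (chromosome 15) went from 79.4, 84.1 and 82.8 FPKM to 57.0, 63.4 and 64.5 FPKM, and its log2 change was -0.41 (SE 0.0665, adjusted p = 0.00175). COL5A2, the next protein-coding gene to COL3A1 in the RefSeq annotation of macaque, went from 379.7, 429.3 and 424.3 FPKM to 282.2, 330.4 and 341.4 FPKM. The control and normal serum libraries of both type V genes were separate. For COL5A2 the log2 change was -0.37 (SE 0.0889, adjusted p = 0.00983), and its call ended when the trend of change with transcript length was removed (adjusted p = 0.0573).

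COL27A1 (chromosome 15), a fibrillar chain known from cartilage, went the other way. It stood at 17.9, 17.7 and 17.1 FPKM in the control and at 48.0, 46.9 and 52.2 FPKM in normal serum, 2.80-fold higher (log2 change 1.43, SE 0.0643, adjusted p = 5.91e-06). Both transcripts of the gene in the table, of 1836 and 1785 bases, rose alike, by 1.38 and 1.39 on the log2 scale, and their shares of the gene overlapped between treatments. The summed fibrillar FPKM went from 6518 to 3383, or 0.519 of the control. Without COL1A1 and COL3A1 it went from 759.4 to 561.6 FPKM, or 0.740 of the control. COL1A1 and COL3A1 thus carry most of the fall of the class in FPKM. The sum of the other chains also fell, by less.

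**Figure D2:**
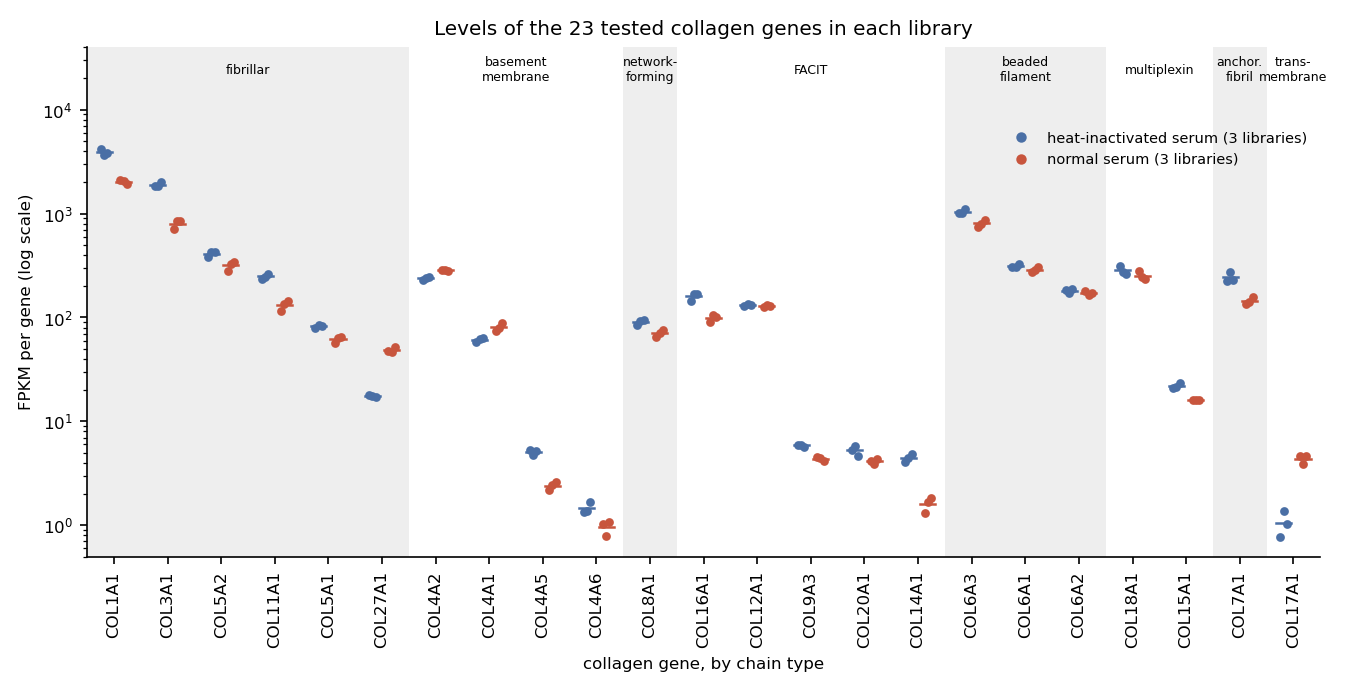
FPKM per gene (log axis) of the 23 tested collagen genes in each library, by chain type; points are libraries and lines are means of 3. COL1A1 stands highest, at 1920 to 4137 FPKM, and COL4A6 and COL17A1 are the lowest, near 1 FPKM in the control.

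Of the 4 basement membrane chains tested 2 were higher, 1 was lower and 1 was not past the threshold. Of all genes tested 27.8% were higher and 26.1% lower, so counts of this size are near the background. After rescaling (16.5% of all genes higher) or quantile normalization none of the 4 was called higher. COL4A1 and COL4A2 (chromosome 17), which form the type IV network found under nearly all endothelia, were higher, and COL4A5 (chromosome X), a chain of more restricted membranes, was lower. COL4A1 read 57.7, 62.4 and 62.9 FPKM in the control and 74.5, 79.3 and 88.5 FPKM in normal serum, 1.32-fold (log2 change 0.40, SE 0.0777, adjusted p = 0.00403). COL4A2 read 231.7, 241.0 and 243.2 FPKM and then 283.7, 287.7 and 280.7 FPKM, 1.19-fold (log2 change 0.25, SE 0.0510, adjusted p = 0.00484). The groups were separate in both genes. These rises depend on the scale: after rescaling the log2 changes were 0.25 and 0.11 (adjusted p = 0.0693 and 0.34), and after quantile normalization 0.21 and -0.06 (adjusted p = 0.0681 and 0.28), so that the COL4A2 value changed sign there.

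COL4A5 stood at 5.26, 4.80 and 5.22 FPKM in the control and at 2.21, 2.43 and 2.60 FPKM in normal serum. All normal serum values were well below the control values, with a log2 change of -0.84 (SE 0.0902, adjusted p = 2.71e-04), a call that also held after rescaling (log2 -0.95) and quantile normalization (log2 -0.71). The depth behind it was modest, between 101 and 272 fragments per library, with the ends set by replicate 1 libraries, whose depth is approximate. COL4A6, also on chromosome X, read 1.34, 1.37 and 1.68 FPKM and then 1.02, 0.783 and 1.07 FPKM, without overlap, but was not past the threshold (log2 change -0.33, SE 0.127, adjusted p = 0.0596). Its mean in normal serum was 0.958 FPKM, so it entered the test through the control libraries. It was called lower after rescaling, with an adjusted p = 0.0389. COL4A4 (1.04 ± 0.439 and 0.795 ± 0.0604 FPKM) and COL4A3 (0.115 ± 0.0431 and 0.0667 ± 0.0377 FPKM), the chains of the kidney and inner ear type IV network, were too low to test and overlapped between treatments.

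Of the network-forming chains, COL8A1 (chromosome 2) alone could be tested. It encodes a chain of the hexagonal lattice that endothelial cells lay down under vessels and corneal endothelium. It went from 85.1, 92.7 and 95.0 FPKM to 65.2, 71.4 and 75.3 FPKM, with no overlap, and the log2 change was -0.36 (SE 0.0747, adjusted p = 0.00525). The call held in every alternative tried, with log2 changes from -0.55 to -0.30. Its partner chain COL8A2 was near the detection limit (0.251 ± 0.0594 and 0.169 ± 0.0441 FPKM, overlapping), and COL10A1, the hypertrophic cartilage chain, was above 0 in 1 library only, at the value of 1 fragment.

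FACIT chains fell in 4 of 5 tested genes and none was higher, where 26.1% of all genes tested were lower and 27.8% higher. The median log2 change of the 5 was -0.35. COL16A1 (chromosome 1), a fibril-associated chain of connective tissue, read 145.3, 167.4 and 166.8 FPKM in the control and 89.5, 105.7 and 101.2 FPKM in normal serum, and fell by 0.69 on the log2 scale (SE 0.0867, adjusted p = 5.36e-04). Its 2 transcripts of 5219 and 4540 bases changed by -0.70 and -0.68 on the log2 scale, and their shares of the gene overlapped between treatments. COL14A1 (chromosome 8), which binds type I fibrils together with decorin, went from 4.09, 4.42 and 4.82 FPKM to 1.31, 1.67 and 1.83 FPKM. That was 0.360 of the control mean, the lowest ratio of the 23 tested genes (log2 change -1.07, SE 0.114, adjusted p = 2.63e-04).

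COL9A3 (chromosome 10), a cartilage chain represented by a gene model of 564 bases, read 5.98, 5.98 and 5.64 FPKM and then 4.56, 4.40 and 4.18 FPKM. The log2 change was -0.35 (SE 0.0766, adjusted p = 0.00657), although each library held only between 24 and 37 fragments of it. COL20A1 (chromosome 10) went from 5.33, 5.82 and 4.66 FPKM to 4.20, 3.91 and 4.37 FPKM, and its call was close to the threshold (log2 change -0.28, SE 0.0969, adjusted p = 0.0434). Replicates 2 and 3 by themselves gave an adjusted p of 0.14. Leaving out 1 library ended the call for replicates 1 and 2 of heat-inactivated serum (0.0985 and 0.138) and for replicates 1, 2 and 3 of normal serum (0.0798, 0.124 and 0.0614), and only without replicate 3 of heat-inactivated serum did it hold. COL12A1 (chromosome 4), a long FACIT that bridges type I fibrils, was the FACIT not past the threshold. Its level was 128.2, 134.2 and 132.9 FPKM in the control and 127.2, 132.1 and 129.2 FPKM in normal serum, and the 95% interval of its log2 change ran from -0.15 to 0.10 (adjusted p = 0.71). Quantile normalization gave -0.25 (adjusted p = 0.00416).

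**Figure D3:**
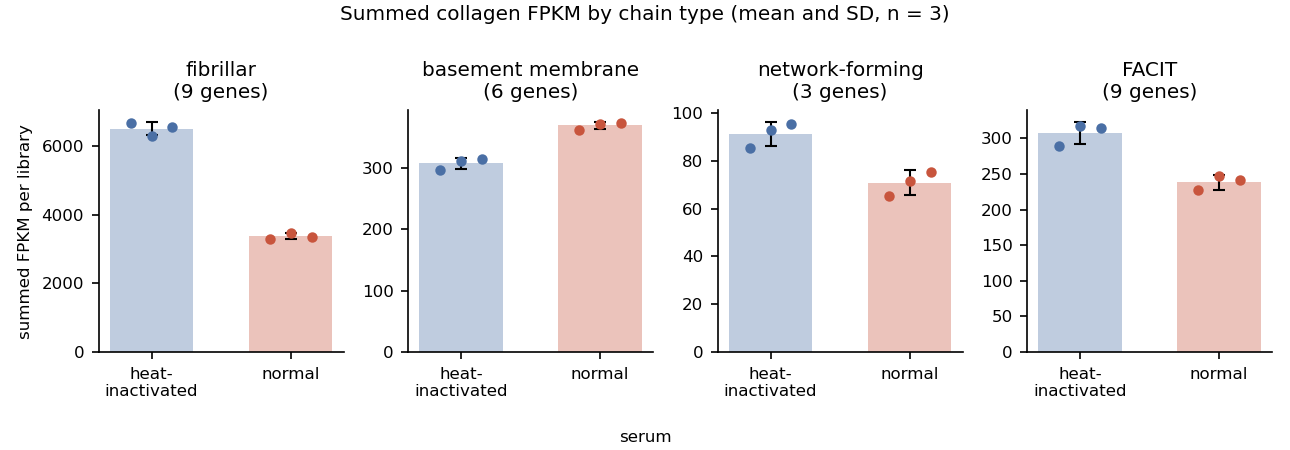
Summed FPKM of the fibrillar, basement membrane, network-forming and FACIT genes in each library (points), with the mean (bars, from 0) and SD of 3 libraries per treatment. The basement membrane sum is higher in normal serum (369.1 against 307.3 FPKM) and the other 3 sums are lower.

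In the deposited values 3 of the 4 classes had lower sums in normal serum and the basement membrane class a higher one. The fibrillar sum went from 6518 ± 198.3 to 3383 ± 88.6 FPKM (SD, n = 3), the network-forming sum from 91.2 ± 5.15 to 70.8 ± 5.13 FPKM and the FACIT sum from 307.3 ± 15.8 to 238.5 ± 10.7 FPKM, while the basement membrane sum went from 307.3 ± 9.39 to 369.1 ± 5.95 FPKM. No class overlapped between treatments. The basement membrane difference was small and moved with the scale, from a log2 ratio of 0.26 to 0.12 after rescaling. There 0 of its genes were called higher and 2 lower, against 16.5% and 31.0% of all genes. Each sum leans on 1 gene, since COL1A1 held 59.3% of the fibrillar sum in the control, COL4A2, whose log2 change was -0.06 after quantile normalization, 77.7% of the basement membrane sum, COL8A1 99.7% of the network sum and COL12A1 42.9% of the FACIT sum. Without COL12A1 the FACIT sum fell from 175.6 ± 12.7 to 109.0 ± 8.36 FPKM, a ratio of 0.621 in place of 0.776. As a share of all collagen FPKM, a measure that library scaling does not touch, the fibrillar class went from 70.0% ± 0.886 to 58.9% ± 0.972 and the basement membrane class from 3.30% ± 0.135 to 6.43% ± 0.0579. The network-forming class went from 0.980% to 1.23% and the FACIT class from 3.30% to 4.15%. These higher shares, like that of the basement membrane class, are of a smaller total, 0.617 of the control. A higher share therefore does not by itself show a higher level of a class. No p is given for these sums, and the differences between classes were not tested.

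Type VI collagen, whose chains COL6A1, COL6A2 and COL6A3 assemble into beaded filaments next to basement membranes, had 1 of 3 tested chains called lower. Of all genes tested 26.1% were lower. After rescaling 2 of the 3 were lower (31.0% of all genes), and after quantile normalization 3. The share of all genes called lower after quantile normalization was not computed. COL6A3 (chromosome 12) stood at 1009, 1009 and 1106 FPKM in the control and at 738.8, 799.9 and 870.3 FPKM in normal serum (log2 change -0.38, SE 0.0774, adjusted p = 0.00505). COL6A1 and COL6A2, neighbours on chromosome 3, were not past the threshold. COL6A1 went from 313.2 ± 9.27 to 287.5 ± 14.3 FPKM (95% interval of the log2 change -0.26 to 0.02, adjusted p = 0.116) and COL6A2 from 180.3 ± 6.92 to 171.6 ± 6.72 FPKM (-0.21 to 0.07, adjusted p = 0.338). Both were called lower after quantile normalization (adjusted p = 0.00266 and 0.00468), and COL6A1 also after rescaling (adjusted p = 0.0362). COL6A6 was listed at 0 in all libraries.

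The transcripts of COL6A3 did not move alike. Transcripts were tested one by one as well, a step added after the values were seen, and of 36 collagen transcripts tested 19 were lower and 6 higher, where 39.6% of the 15719 transcripts tested were called, 18.6% lower and 21.0% higher. The COL6A3 transcript of 9668 bases read 323.9, 284.0 and 296.5 FPKM in the control and 178.6, 167.8 and 202.0 FPKM in normal serum (log2 change -0.72, SE 0.0872, adjusted p = 0.00165). The transcript of 5861 bases, the most abundant, went from 625.0 ± 68.0 to 567.6 ± 50.6 FPKM and was not past the threshold (log2 change -0.14, SE 0.103, adjusted p = 0.336). The shorter transcripts of 4030 and 3391 bases were lower too, with log2 changes of -0.85 and -1.19 (adjusted p = 0.00756 and 0.00132). In the authors' deposited table these have q-values of 0.491 and 0.112, and the 9668-base transcript 2.23e-04. As a share of the gene, the 9668-base transcript ran from 26.8% to 32.1% in the control and from 21.0% to 24.2% in normal serum. That difference gave p = 0.1 in an exact permutation test (two-sided), the smallest that 3 against 3 libraries can give. The division of fragments between overlapping transcripts is the authors' estimate.

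COL12A1, level as a gene, was also made of unequal parts. Its transcript of 9120 bases fell from 40.6, 45.4 and 44.7 FPKM to 26.8, 31.0 and 33.6 FPKM (log2 change -0.51, SE 0.0966, adjusted p = 0.00826). The transcript of 3050 bases stood at 88.2 ± 0.602 and 93.4 ± 5.19 FPKM (adjusted p = 0.302). A transcript of 339 bases was listed at 0 in all control libraries and read 1.67, 7.96 and 7.20 FPKM in normal serum. In the authors' deposited table the 9120-base transcript has a log2 change of -0.52 with a q-value of 4.28e-04 and the 3050-base transcript 0.08 with a q-value of 0.679. The 339-base transcript has a q-value of 0.259 in the authors' deposited table, not past 0.05, while the transcript test gave it an adjusted p of 0.00728. Of the 43 collagen transcripts the authors could test, 16 were lower and 6 higher at a q-value under 0.05 in the authors' deposited table, where 41.1% of all 17230 transcripts they tested were past that value, 20.5% lower and 20.6% higher.

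**Figure D4:**
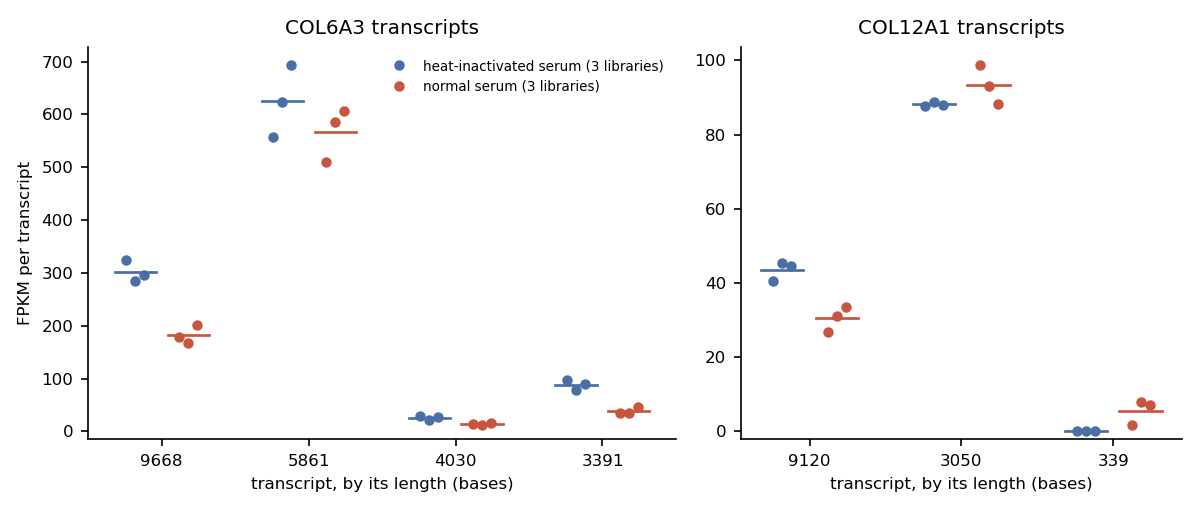
FPKM of the 4 transcripts of COL6A3 and the 3 of COL12A1 in each library, by transcript length in bases; lines are means of 3. The longest transcript of each gene is lower in normal serum, as are the COL6A3 transcripts of 4030 and 3391 bases. The COL12A1 transcript of 339 bases is listed at 0 in the control (q-value 0.259 in the authors' deposited table).

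Among the remaining classes, COL17A1 (chromosome 9), the transmembrane collagen of hemidesmosomes, rose from 0.769, 1.38 and 1.03 FPKM to 4.66, 3.89 and 4.62 FPKM. The groups were far apart, with a 4.14-fold ratio of means and a log2 change of 1.39 on the FPKM + 1 scale, which understates changes at such low levels (SE 0.138, adjusted p = 1.87e-04). Its call held in every alternative that tested it. COL7A1 (chromosome 2), the chain of the anchoring fibrils that tie basement membrane to stroma, went from 225.9, 276.6 and 231.1 FPKM to 134.9, 140.8 and 158.3 FPKM (log2 change -0.75, SE 0.0971, adjusted p = 6.11e-04). Control replicate 2 was the highest, and all normal serum values were below all control values.

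The multiplexins COL15A1 and COL18A1 encode proteoglycan collagens of vascular basement membranes, and the end of the COL18A1 protein is known as the source of endostatin. COL15A1 (chromosome 15) fell from 21.1, 21.2 and 23.2 FPKM to 16.0, 16.1 and 16.2 FPKM (log2 change -0.42, SE 0.0638, adjusted p = 0.0013). COL18A1 (chromosome 3), measured through a model of 564 bases, stood at 310.8, 275.8 and 264.6 FPKM and then at 279.1, 243.8 and 236.5 FPKM. Replicate 1 was the highest library in both treatments, the groups overlapped and the gene was not past the threshold (log2 change -0.16, 95% interval -0.37 to 0.04, adjusted p = 0.153). A model that set replicate 1 of both treatments apart called it lower, at an adjusted p = 0.0145, as did quantile normalization (log2 change -0.44, adjusted p = 0.00481).

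Ratios of chains within a library do not depend on its scaling, and 5 were tested for chains that share a molecule or locus. COL5A1 per COL5A2 ran from 0.195 to 0.209 in the control and from 0.189 to 0.202 in normal serum, overlapping (exact permutation p = 0.4, adjusted over 5 ratios 0.5), so the type V chains showed no detectable shift against each other. COL6A1 per COL6A2 overlapped too (exact permutation p = 0.6). COL4A1 per COL4A2 stood at 0.263, 0.276 and 0.315 in normal serum against 0.249, 0.259 and 0.259 in the control, and its log2 difference of 0.15 went to 0.08 without normal serum replicate 3. COL6A1 per COL6A3 stood at 0.348 to 0.372 against 0.293 to 0.305, a log2 difference of 0.25 that went to 0.01 when each gene was read from its highest transcript. COL4A5 per COL4A6 ran from 3.11 to 3.93 in the control and from 2.16 to 3.11 in normal serum, the groups meeting at 3.11, and its log2 difference of -0.46 went to -0.74 with the highest transcripts. These 3 ratios gave an exact permutation p = 0.1 (two-sided), the smallest possible for 3 against 3 libraries, or 0.167 adjusted over the 5 ratios, so none was past the threshold.

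Another 4 ratios were picked after the values were seen, from genes that differed in their change, and are given as a description with no test. COL4A2 per COL4A5 was 44.1, 50.2 and 46.6 in the control and 128.2, 118.2 and 108.1 in normal serum, a difference of 1.33 on the log2 scale. COL3A1 per COL5A2, adjacent genes of 1 locus, was 4.82, 4.26 and 4.72 and then 2.51, 2.54 and 2.46, a log2 difference of -0.88. COL27A1 per COL5A1, both on chromosome 15 in the table, was higher by 1.90 on the log2 scale, and COL1A1 per COL3A1 by 0.32, or by 0.21 without normal serum replicate 1.

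**Figure D5:**
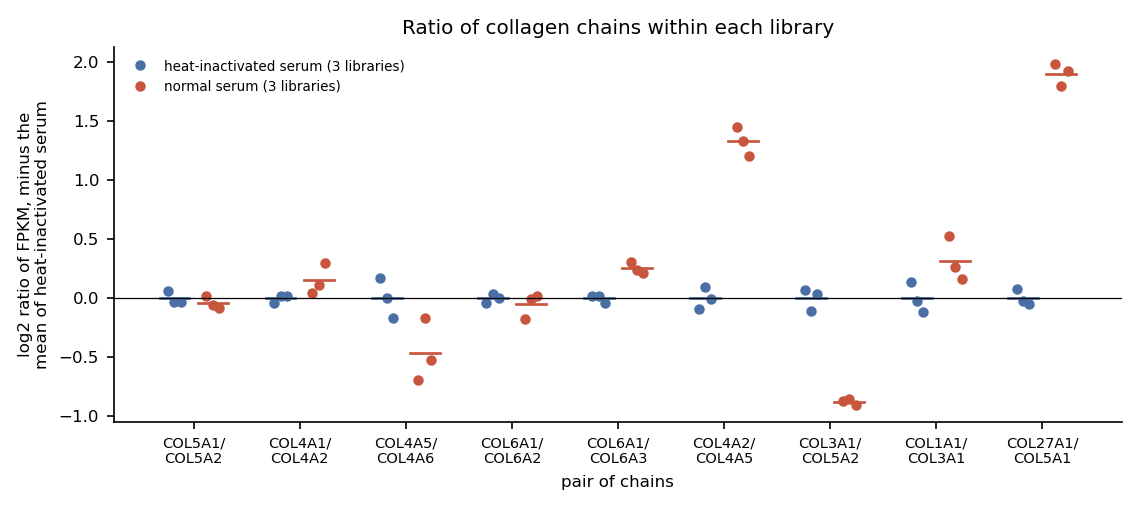
Log2 ratio of the FPKM of pairs of collagen chains in each library, set to 0 at the mean of heat-inactivated serum; lines are means of 3. Of the 5 ratios tested, COL5A1 per COL5A2 and COL6A1 per COL6A2 overlap between treatments; the 4 on the right were picked after the values were seen.

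The other 15 collagen genes had a mean below 1 FPKM and were not tested. COL11A2, a cartilage fibrillar chain, stood at 0.576 ± 0.0656 and 0.846 ± 0.241 FPKM and overlapped between treatments. Means of at least 0.1 FPKM were reached by COL4A4, COL11A2 and COL8A2, and 12 genes lay lower. Of these 12, COL2A1, the main cartilage collagen, was named after its values were seen because its groups did not overlap. It stood at 0.0954, 0.0376 and 0.0574 FPKM in the control and 0.104, 0.149 and 0.126 FPKM in normal serum, levels of a few fragments. COL24A1, a minor fibrillar chain whose groups also did not overlap, was at most 0.0344 FPKM in the control and 0.0347 to 0.0499 FPKM in normal serum. These too are levels of a few fragments, and the gap between 0.0344 and 0.0347 FPKM is less than 1 fragment. COL6A6, COL9A2, COL19A1 and COL23A1 were listed at 0 in all libraries. At the other end, COL1A1 ranked 63 and COL3A1 125 among all genes by mean FPKM.

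Genes that act on collagen were read from 7 lists with 68 members, of which 67 were found and 56 tested. Of these 15 were higher and 22 lower, where 27.8% of all genes tested were higher and 26.1% lower, so the higher count is near the background. After rescaling 8 were higher and 26 lower (16.5% and 31.0% of all genes). After quantile normalization 11 were higher and 27 lower, where the median log2 change of all genes was -0.02 and the share of all genes called was not computed. The median log2 change of the 56 was -0.09, against 0.01 for all genes. In procollagen processing 4 of 6 tested genes were lower and 1 higher (median log2 change -0.53), with the same counts after rescaling and after quantile normalization. ADAMTS14, which removes the amino-terminal propeptide of fibrillar procollagen, went from 42.1 ± 1.64 to 9.24 ± 0.583 FPKM (log2 change -2.07, SE 0.0688, adjusted p = 1.74e-06). BMP1, which removes the carboxy-terminal propeptide, went from 95.9 ± 4.38 to 50.0 ± 2.72 FPKM (adjusted p = 4.24e-05). Of the enhancers of BMP1, PCOLCE fell from 103.9 ± 9.28 to 68.8 ± 4.29 FPKM and PCOLCE2 rose from 83.8 ± 2.50 to 113.4 ± 5.56 FPKM.

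Fibril partners were lower in all 4 genes tested (median log2 change -0.68), where 26.1% of all genes tested were lower. The 4 were also lower after rescaling (31.0% of all genes). They were lower after quantile normalization too, where that share was not computed. SPARC, a collagen-binding protein of the matrix, went from 1961 ± 106.5 to 1189 ± 97.7 FPKM, and LUM, which encodes lumican, from 302.2 ± 22.6 to 193.3 ± 6.43 FPKM. BGN, which encodes biglycan, went from 374.9 ± 4.67 to 306.1 ± 7.65 FPKM, and DCN fell by 2.39 on the log2 scale. LUM and DCN are also among the fibroblast markers above. Of the collagen receptors 2 of 8 were higher and 4 lower, against the 27.8% and 26.1% of all genes. The integrin chain genes ITGA10 (8.52 ± 0.700 to 1.39 ± 0.0846 FPKM) and ITGA11 (208.1 ± 2.20 to 120.0 ± 10.8 FPKM) and the receptor kinase gene DDR2 (34.5 ± 0.822 to 15.7 ± 0.682 FPKM) fell, while ITGA2 rose from 6.83 ± 0.645 to 27.0 ± 4.02 FPKM. After rescaling 1 of these 8 receptor genes was higher and 4 lower, against 16.5% and 31.0% of all genes.

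Genes of hydroxylation and glycosylation had 4 of 13 higher and 4 lower (median log2 change 0.03), near the 27.8% and 26.1% of all genes. After rescaling 2 were higher and 4 lower, against 16.5% and 31.0% of all genes. LEPREL1, a prolyl 3-hydroxylase gene, rose from 28.7 ± 2.22 to 48.4 ± 3.05 FPKM and PLOD3, a lysyl hydroxylase gene, from 58.9 ± 1.45 to 83.5 ± 3.55 FPKM. CRTAP, a partner of prolyl 3-hydroxylation, fell from 219.2 ± 4.85 to 176.7 ± 7.75 FPKM. PPIB, a prolyl isomerase of the same complex, rose from 1460 ± 49.0 to 1864 ± 85.1 FPKM, a call that ended after rescaling (adjusted p = 0.0805) and quantile normalization (adjusted p = 0.0634). Folding and export genes had 3 of 15 higher and 3 lower, below the 27.8% and 26.1% of all genes, or 0 and 6 after rescaling. KLHL12, an adaptor of the ubiquitin ligase that enlarges procollagen carriers, fell from 17.0 ± 0.626 to 9.19 ± 1.02 FPKM, as did CREB3L1, a transcription factor that acts on COL1A1 in bone, from 76.7 ± 1.81 to 61.4 ± 1.94 FPKM, and the coat gene SEC24D from 39.5 ± 1.05 to 32.8 ± 0.294 FPKM. SEC13, another coat gene, rose from 137.6 ± 8.09 to 172.7 ± 10.2 FPKM, a call that ended after rescaling (adjusted p = 0.135) and quantile normalization (adjusted p = 0.219).

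Of the crosslinking enzymes 2 of 4 tested were higher and 1 lower, against 27.8% and 26.1% of all genes. After rescaling 1 was higher and 2 lower, against 16.5% and 31.0%. LOX rose from 88.7 ± 5.26 to 137.7 ± 16.9 FPKM under all 3 scalings, LOXL2 rose from 172.1 ± 3.96 to 217.3 ± 7.32 FPKM in the unscaled values alone (adjusted p = 0.0975 after rescaling and 0.173 after quantile normalization), LOXL3 fell from 28.4 ± 0.840 to 22.3 ± 1.13 FPKM and LOXL1 stood at 468.8 ± 27.5 and 410.9 ± 54.9 FPKM (adjusted p = 0.132). Among degrading enzymes 3 of 6 were higher and 2 lower, under all 3 scalings, against the same shares of all genes. Neither short list was tested against those shares. The collagenase gene MMP1 rose from 56.7 ± 10.9 to 165.5 ± 12.0 FPKM and the gelatinase gene MMP9 by 3.80 on the log2 scale. The gelatinase gene MMP2 fell from 48.5 ± 4.99 to 26.7 ± 0.705 FPKM and CTSK, which encodes a lysosomal collagenase, from 24.8 ± 1.40 to 14.3 ± 1.41 FPKM.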

How the data were processed

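Polyadenylated RNA of 3 heat-inactivated serum and 3 normal serum libraries was sequenced; treatments and replicate numbers are those of the labels. The submitters' processing notes name TopHat2 2.0.7, Cufflinks 2.1.1 as well as Cuffdiff 2.1.1, and no genome build (not given in the sources used here). Values the authors deposited were FPKM for each transcript in each library, its length, and a log2 fold change with its p-value and q-value.

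Values of the 44605 transcripts were summed by symbol to 24932 genes, after 256 of 7008 identifiers that lacked a symbol were matched to one in a gene name table. Fragments shared by isoforms or overlapping genes are divided as the authors' software estimated. A gene was tested where its mean reached 1 FPKM, with limma 3.58.1 in R 4.3.3 on log2(FPKM + 1), with trended empirical Bayes variance, Benjamini-Hochberg adjustment over all genes tested, no replicate block and a threshold of 0.05. A fold is a ratio of mean FPKM, and errors are SD over 3 libraries. The test was checked on simulated data.

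In replicates 2 and 3 of both treatments, low values of single-transcript genes were whole multiples of 1 fragment (100% within 0.1 fragments, with 180 bases taken off each length), which placed depth between 14400000 and 17500000 fragments. In the replicate 1 libraries only 47.1% and 43.4% were whole, so their depth is approximate. All tested collagen genes were named, and of each list of partner genes up to 4 with the smallest adjusted p. Endothelial, fibroblast and mural, and other marker lists were summarised; the 1 retinal pigment epithelium and 2 leukocyte markers tested were not past the threshold, 1 of 2 chondrocyte markers was higher and the 1 epithelial marker tested was lower. The genes and lists were chosen with earlier results of these data known. Alternatives varied the pseudocount, filter, scaling, variance model, summing of transcripts, length trend and libraries. The transcript test and 4 of the 9 chain ratios (not tested) were added after the values were seen. Gene order came from RefSeq (assembly T2T-MMU8v2.0), where all 38 genes were found by symbol.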

Additional observations from a re-analysis of the deposited data

How the results depend on the processing

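Of the 18 called collagen genes, 13 kept their call and direction in each of 20 alternatives that tested them; COL4A1, COL4A2, COL5A2, COL6A3 and COL20A1 did not. The count of higher genes went from 4 to 2 after rescaling to the same total FPKM and to 2 after quantile normalization, where COL4A2 changed sign (log2 -0.06), and the count of higher partner genes from 15 to 8 after rescaling. Leaving out 1 library gave 13 to 14 lower and 4 higher collagen genes. After rescaling, the log2 ratios of summed FPKM were -1.09 for fibrillar, 0.12 for basement membrane, -0.51 for network-forming and -0.51 for FACIT genes, against -0.95, 0.26, -0.36 and -0.37. The COL6A3 call ended when its highest transcript stood for the gene (log2 -0.14, adjusted p = 0.298). COL12A1, never called except after quantile normalization, changed sign with its highest transcript (0.08) and with the length trend removed (0.01). The log2 difference of COL6A1 per COL6A2 ran from -0.09 to 0.01 when 1 library was left out; the cause of these changes was not tested.

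With the replicate number as a block, 14 collagen genes were lower and 4 higher; COL20A1 was lost (adjusted p = 0.0684) and COL18A1 gained (adjusted p = 0.0254). The numbers were not taken as pairs, because the labels do not say that they mark shared cultures or days. Deviations of same-numbered libraries correlated at 0.193, 0.0333 and 0.00593 for numbers 1, 2 and 3, and those of unlike-numbered libraries from -0.134 to 0.106. Number 1 thus gave the highest value, and what its libraries share was not tested. Depth limits the 15 untested genes.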
